A study of Mus musculus with 6 samples.

Results

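The genes described here encode the core machinery of autophagy. They were chosen by name, with earlier results of these data known, and comprise 42 of the 34745 genes in the deposited count table: 5 of initiation, 6 of nucleation, 6 of phagophore membrane supply, 11 of conjugation, 5 of the ATG8 family, 7 cargo receptors and 2 of fusion with lysosomes. All 42 had enough counts to be tested. RNA was sequenced from monocytic myeloid-derived suppressor cells (M-MDSCs, CD11b+Ly6G-Ly6C high) that had been grown from mouse bone marrow with GM-CSF and IL-6 and then sorted. The series has 3 libraries labelled mTOR-/- and 3 labelled WT. The mTOR-/- cells came from mice that carry floxed mTOR alleles and Cre recombinase in the lysozyme locus (Lyz-mTOR mice), and the WT cells from mice with intact mTOR. The paper names C57BL/6 for its purchased WT mice and gives no strain background for the floxed and Cre lines. It does not say whether the WT mice were littermates or carried Cre. Cre driven by this locus acts in myeloid cells, so other cells of these mice keep mTOR. Ages are not stated. The methods give n = 3 for the mice of this experiment, and the labels do not say whether each library is 1 mouse or a pool, so the p-values measure the spread between libraries, which may in part be technical.

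Autophagy encloses cytoplasm in a double membrane and delivers it to lysosomes. The mTOR complex that senses nutrients phosphorylates the ULK kinase complex and restrains it while nutrients are plentiful, and it keeps the transcription factors TFEB and TFE3, which activate autophagy and lysosome genes, in the cytoplasm. Once ULK1 is active, a class III phosphatidylinositol 3-kinase complex marks the site of the new membrane, lipid-transfer proteins extend it, enzymes resembling those of ubiquitin transfer attach ATG8 proteins (LC3 and GABARAP) to it, receptors bring cargo, and fusion with the lysosome completes the process. Much of this control acts on proteins, and a transcript level measures neither a protein nor autophagic flux.

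Across all 12537 tested genes, 507 (4.04%) passed an adjusted p of 0.05 in edgeR's quasi-likelihood test with Benjamini-Hochberg adjustment, 273 of them higher (2.18%) and 234 lower (1.87%) in the libraries labelled mTOR-/-. Of the 42 autophagy genes, 1 passed, the cargo receptor Tax1bp1, which was lower, and 0 changed at least 2-fold, against 1.69% of all tested genes that passed with such a fold. With DESeq2's Wald test 3 of the 42 autophagy genes passed, Tax1bp1, Atg12 and Sqstm1, all lower, beside 1144 of the 12537 tested genes. At an unadjusted p under 0.05 in edgeR there were 3 higher and 10 lower, 13 of 42 in all, beside 21.2% of all tested genes. By direction, 1464 of the 12537 tested genes were higher and 1193 lower at that p. The fitted log2 fold changes (mTOR-/- minus WT) ran from -0.47 to 0.47, with 17 above and 25 below 0. Their median was -0.06, beside 0.0049 over all tested genes, and their median size was 0.25, beside 0.22. In 14 genes the 3 libraries of one group lay entirely above or below those of the other, 13 of them lower (31.0%) and 1 higher (2.38%) in the libraries labelled mTOR-/-, whereas 13.9% of all tested genes were separated in the lower and 14.5% in the higher direction. The 13 lower genes were spread over 5 of the steps. In these sorted populations, fewer cells of a type and less RNA per cell cannot be told apart.

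**Figure D1:**
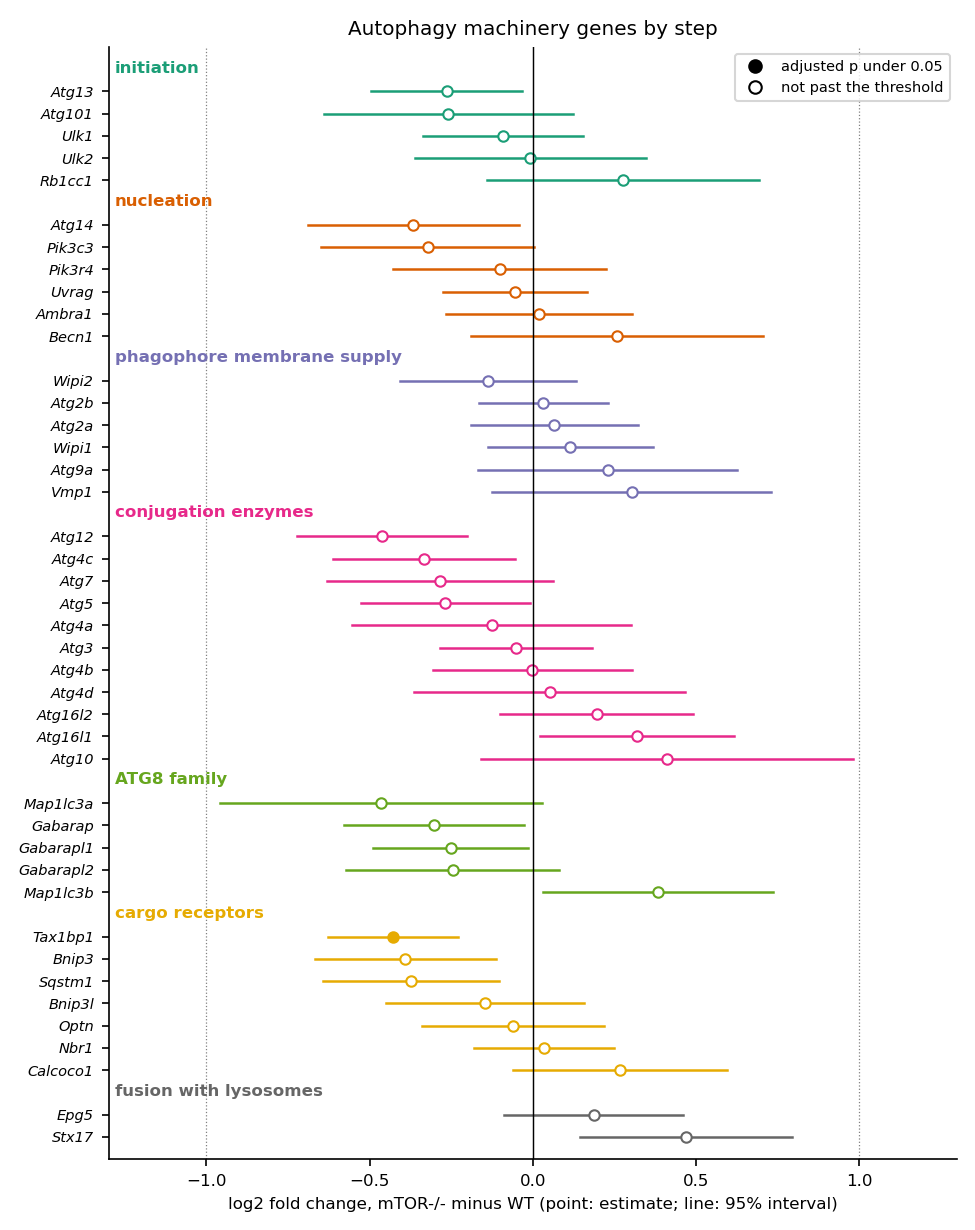
Log2 fold change (mTOR-/- minus WT) of the 42 autophagy genes by step, with the estimate as a point and its 95% interval as a line; a filled point marks an adjusted p under 0.05. All estimates lie between -0.47 and 0.47, and the filled point is that of Tax1bp1.

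**Figure D2:**
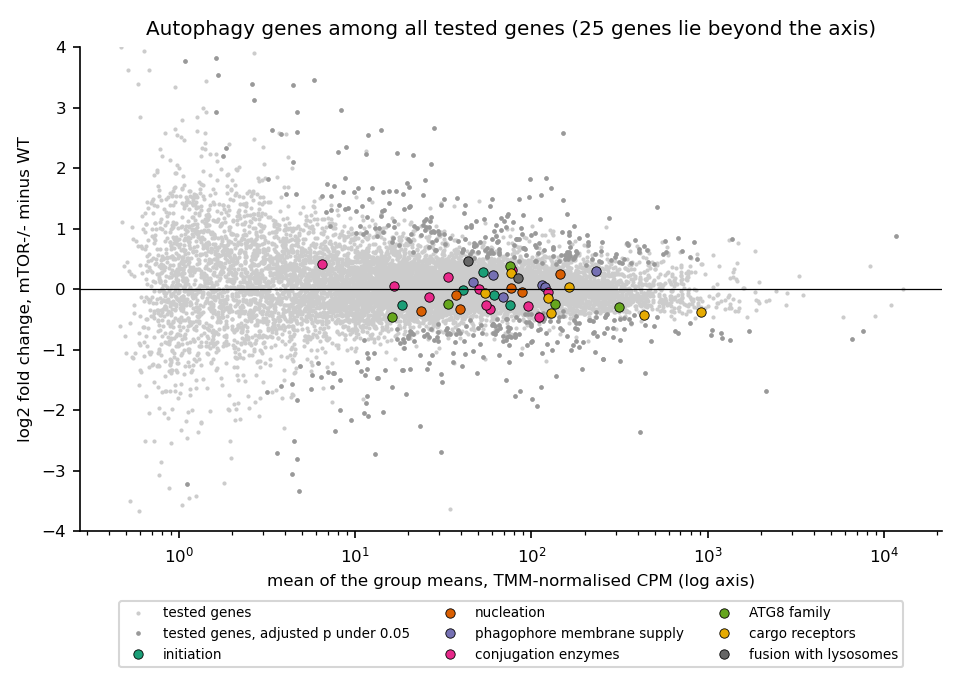
Log2 fold change (mTOR-/- minus WT) against the mean TMM-normalised CPM (counts scaled to library size, log axis) of 12537 tested genes, with the 42 autophagy genes coloured by step and genes past an adjusted p of 0.05 in darker grey. The autophagy genes sit within the central band of the cloud, and 25 other genes lie beyond the axis.

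Several measurements on the libraries bear on these values. Counts per library totalled between 12317507 and 14768126. The third mTOR-/- library stood apart: its correlation of log2 CPM was 0.952 to 0.955 with the other 2 of its group, which correlated with each other at 0.973, while WT libraries correlated at 0.978 to 0.981. It was the lowest of the 6 libraries in 17 of the autophagy genes and the highest in 13, and without it the log2 fold change of 20 of the 42 genes changed sign or moved by over 1.5 times, against 9 to 13 genes without any 1 of the other libraries. Counts of Mtor, the targeted gene, were 883, 983 and 908 in the libraries labelled mTOR-/- and 980, 875 and 929 in the WT libraries (log2 fold change 0.15, 95% interval -0.09 to 0.39, adjusted p = 0.442, edgeR's quasi-likelihood test). A count over the whole gene does not show whether some of its exons were removed, so Mtor did not check the labels. The paper states that it verified the loss of mTOR in MDSCs, in a supplementary figure. Lyz2, the lysozyme gene whose locus carries Cre, fell by 1.68 on the log2 scale (adjusted p = 0.00255, edgeR's quasi-likelihood test).

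Marker genes of the sorted cells and of others also differed by edgeR's quasi-likelihood test. Of 7 monocytic markers, Csf1r and Cd14 were higher and Ly6c2 and Lyz2 lower in the libraries labelled mTOR-/-, with a summed level of 2840 to 3323 against 4330 to 6065 CPM in WT. Without Lyz2 the other 6 overlapped between groups, at 1938 to 2255 and 2003 to 2329 CPM. The 6 mast cell and basophil markers summed to 239 to 295 against 876 to 1056 CPM, with Cpa3, Mcpt8 and Kit lower. Cpa3 alone was at 111 to 154 and 632 to 769 CPM. For 7 neutrophil markers the sums were 1743 to 2146 and 1558 to 1878 CPM, with Ly6g higher and Ngp and Ltf lower. Mmp8, which did not pass, made up most of the neutrophil sum, at 1395 to 1798 and 1078 to 1321 CPM. Of the 7 dendritic cell markers, 4 could be tested and Ccr7 was higher, with sums of 65.3 to 69.9 and 15.4 to 39.5 CPM, and Siglech was at 0. Most of the dendritic cell sum was Ccr7, at 57.6 to 60.2 and 13.6 to 30.6 CPM. Macrophage markers summed to 404 to 541 and 567 to 650 CPM with none of 3 tested past the threshold and Vsig4 at 0. Nearly all of the macrophage sum was Adgre1, at 402 to 533 and 564 to 643 CPM. Stromal markers summed to 119 to 164 and 209 to 229 CPM, nearly all of it Pecam1, which myeloid cells also express, at 116 to 163 and 208 to 228 CPM and lower, while Col3a1 was at 0. Sums of B cell, T cell and erythroid markers were at most 6.13 CPM in every library. The part of these populations in the autophagy results was not tested.

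Promoter sequence is shown for Tax1bp1, the 1 gene that passed the test, and for the 3 separated genes Atg14, Atg5 and Bnip3, whose windows held the E-box core CACGTG that TFEB and TFE3 bind. RefSeq windows on GRCm38.p6, from 250 bases before to 50 after a transcript start, matched 34 of the 42 genes. Both strands were searched. CACGTG stood in the windows of 5 of the 34 (14.7%; Atg14, Atg3, Atg5, Atg7 and Bnip3), beside 8.09% of 27025 genes with a window. The longer form TCACGTGA, which contains it, stood in 1 of the 34 (Atg3) and in 1.12% of genes. The window of Atg7 belongs to a start 27999 bases inside the gene. Capitals below mark CACGTG, which Tax1bp1 lacks, in 170 bases from 150 before the start to 20 after it.
Tax1bp1 (chr6:52713579-52713748, forward strand): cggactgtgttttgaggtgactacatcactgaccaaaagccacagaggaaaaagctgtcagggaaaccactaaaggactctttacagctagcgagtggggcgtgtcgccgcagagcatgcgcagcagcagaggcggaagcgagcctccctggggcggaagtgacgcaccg
Atg14 (chr14:47568415-47568584, reverse strand): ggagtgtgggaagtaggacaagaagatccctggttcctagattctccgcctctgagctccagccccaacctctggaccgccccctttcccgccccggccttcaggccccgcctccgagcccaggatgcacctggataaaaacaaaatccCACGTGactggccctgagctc
Atg5 (chr10:44268189-44268358, forward strand): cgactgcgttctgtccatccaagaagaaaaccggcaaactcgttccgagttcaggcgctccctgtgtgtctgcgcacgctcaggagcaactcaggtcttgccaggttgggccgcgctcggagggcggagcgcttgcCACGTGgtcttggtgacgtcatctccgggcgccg
Bnip3 (chr7:138909487-138909656, reverse strand): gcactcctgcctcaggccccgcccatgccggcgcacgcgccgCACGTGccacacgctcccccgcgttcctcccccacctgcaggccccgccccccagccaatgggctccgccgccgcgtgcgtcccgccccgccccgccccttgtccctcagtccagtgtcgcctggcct

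In Atg14 the motif spans the RefSeq transcript start, in Atg5 it begins 14 bases before it and in Bnip3 108 bases before it. The GENCODE M21 annotation begins the Atg14 gene further upstream, at 47570649 on the reverse strand, outside the printed bases. A match describes these letters only. Of the 5 genes with CACGTG, Atg14, Atg5 and Bnip3 were lower in every library labelled mTOR-/- than in any WT library. Among all tested genes, 13.9% were separated in that direction. Atg3 (log2 fold change -0.05), which holds CACGTG at 2 places and is not printed, and Atg7 (-0.28) overlapped. Atg14, Atg5 and Bnip3 were printed because they were separated, and a link between the motif and the levels was not tested. The antioxidant response element core TGACNNNGC, which NRF2 binds, stood in 5 of the 34 genes (14.7%) and in 14.0% of genes with a window. Those 5 were Atg13, Map1lc3b, Tax1bp1, Ulk2 and Vmp1. Sqstm1, known as a target of NRF2, was not among them, and a gene without a window could not be.

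Initiation depends on the ULK complex, formed by the kinase ULK1 or ULK2 with ATG13, FIP200 (encoded by Rb1cc1) and ATG101. None of the 5 genes passed edgeR's test or DESeq2's, 1 was lower at an unadjusted p under 0.05, 4 of the 5 estimates were below 0, and Atg13 alone was separated between groups. Over all tested genes, 21.2% had such a p and 28.4% were separated in either direction. Rb1cc1 (ENSMUSG00000025907, chromosome 1, 6206197 to 6276648) had the largest estimate of the step. Its TMM-normalised CPM was 47.2, 51.3 and 75.0 in mTOR-/- libraries 1 to 3 and 54.9, 42.8 and 45.6 in WT libraries 1 to 3. The third mTOR-/- library was the only one above all WT values, and the groups overlapped. Group means were 57.9 ± 15.03 and 47.8 ± 6.38 CPM (SD, n = 3), and the change did not pass the threshold (log2 fold change 0.28, SE 0.185, 95% interval -0.14 to 0.69, adjusted p = 0.426, edgeR's quasi-likelihood test). Without the third mTOR-/- library the log2 fold change of Rb1cc1 was 0.04.

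Atg13, the regulatory subunit that mTOR also phosphorylates, lay at 64.1 to 75.3 CPM in the libraries labelled mTOR-/- and at 81.4 to 85.5 in WT, with no overlap. Its log2 fold change of -0.26 (95% interval -0.50 to -0.03) gave an adjusted p of 0.185 in edgeR's quasi-likelihood test. Atg101, which stabilises ATG13, had a log2 fold change of -0.26 (95% interval -0.64 to 0.12) with overlapping groups, or -0.14 without the third WT library. The kinases themselves were near 0: Ulk1 at -0.09 (95% interval -0.34 to 0.15) and Ulk2 at -0.0072 (-0.36 to 0.35). Neither interval of the kinases reaches a 2-fold change.

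Nucleation requires the lipid kinase VPS34 (Pik3c3), its scaffold VPS15 (Pik3r4) and Beclin 1 (Becn1), joined by either ATG14 in the autophagy complex or UVRAG in the endosomal one, with AMBRA1 as a regulator of Beclin 1. None of the 6 genes passed edgeR's test or DESeq2's, 1 was lower at an unadjusted p under 0.05, and 4 of the 6 estimates were below 0. Atg14 (ENSMUSG00000037526, chromosome 14, 47540894 to 47568434), the subunit that directs the kinase to autophagy and whose window is printed above, had the largest estimate. Its levels were 21.7, 20.8 and 19.1 CPM in mTOR-/- libraries 1 to 3 and 23.8, 28.7 and 26.9 CPM in the WT libraries. Every mTOR-/- value was below every WT value. Atg14 averaged 20.5 ± 1.303 and 26.5 ± 2.47 CPM (SD, n = 3), 0.776 of the WT level, and did not pass the threshold (log2 fold change -0.37, SE 0.144, 95% interval -0.69 to -0.04, adjusted p = 0.189, edgeR's quasi-likelihood test). Pik3c3 was separated in the same direction, at 29.6 to 38.7 against 38.8 to 46.2 CPM (log2 fold change -0.32, adjusted p = 0.241, edgeR's quasi-likelihood test). Separation in that direction was seen in 13.9% of all tested genes.

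The proteins of Becn1, Atg5, Atg7 and LC3 were measured by western blot in the same study. The paper reports each of them increased in mTOR-/- M-MDSCs, from spleen and from bone marrow culture. The values given here are of RNA. Becn1 (ENSMUSG00000035086, chromosome 11, 101285952 to 101302286) had 175, 138 and 161 CPM in mTOR-/- libraries 1 to 3 and 146, 162 and 88.9 CPM in WT libraries 1 to 3. The third WT library was the lowest of the 6, and the other 2 WT libraries lay within the mTOR-/- range. Means were 158 ± 18.7 and 132 ± 38.5 CPM (SD, n = 3; log2 fold change 0.26, SE 0.199, 95% interval -0.19 to 0.70, adjusted p = 0.491, edgeR's quasi-likelihood test). Without the third WT library the log2 fold change of Becn1 was 0.04, so its size rests on that library. Becn1 overlaps the coding gene Cntd1, and the strand setting of the counting is not given in the sources used here. The remaining genes of the step, Pik3r4 (-0.10), Uvrag (-0.05) and Ambra1 (0.02), had log2 fold changes of small size with overlapping groups.

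Membrane for the growing phagophore is supplied by ATG9 vesicles, by the lipid-transfer proteins ATG2A and ATG2B, which WIPI proteins recruit to phosphatidylinositol 3-phosphate, and by the scramblase VMP1 in the endoplasmic reticulum. In this step 5 of the 6 estimates were above 0, none passed edgeR's test or DESeq2's, 0 had an unadjusted p under 0.05, and no gene was separated between groups. Vmp1 (ENSMUSG00000018171, chromosome 11, 86583865 to 86683836) had the largest estimate, with 245, 187 and 333 CPM in mTOR-/- libraries 1 to 3 and 184, 238 and 199 CPM in the WT libraries. The third mTOR-/- library was the highest and the second lay inside the WT range. Vmp1 averaged 255 ± 73.7 and 207 ± 27.7 CPM (SD, n = 3; log2 fold change 0.30, SE 0.191, 95% interval -0.13 to 0.73, adjusted p = 0.397, edgeR's quasi-likelihood test), and its log2 fold change without the third mTOR-/- library was 0.06. Atg9a, the membrane protein of the vesicles, was at 0.23 on the log2 scale and at 0.04 without the third WT library, in which it had 40.1 CPM against 64.0 and 62.6 in the other 2. The other 4 genes, Wipi1 (0.12), Wipi2 (-0.14), Atg2a (0.07) and Atg2b (0.03), had intervals that included 0. For Atg2b the interval was the narrowest of the step, -0.17 to 0.23.

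Conjugation proceeds along 2 linked routes. ATG7 activates both ATG12 and the ATG8 proteins, ATG10 passes ATG12 to ATG5, ATG3 passes ATG8 proteins to the lipid, the ATG12-ATG5 conjugate with ATG16L1 sets the place of lipidation, and ATG4 proteases prepare and later release ATG8 proteins. None of the 11 genes passed edgeR's test, 1 higher and 3 lower had an unadjusted p under 0.05, and 7 estimates were below 0 and 4 above. An unadjusted p under 0.05 was reached by 21.2% of all tested genes. Atg12, Atg4c and Atg5 were separated, each lower in the libraries labelled mTOR-/-, as were 13.9% of all tested genes.

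Atg12 (ENSMUSG00000032905, chromosome 18, 46732417 to 46741579), the ubiquitin-like protein joined to ATG5, came nearest to the threshold. It had 105, 92.8 and 79.7 CPM in mTOR-/- libraries 1 to 3 and 121, 127 and 134 CPM in WT libraries 1 to 3. No mTOR-/- library reached the lowest WT value. Means of Atg12 were 92.4 ± 12.4 and 127 ± 6.22 CPM (SD, n = 3), 0.726 of the WT level (log2 fold change -0.46, SE 0.116, 95% interval -0.72 to -0.20, adjusted p = 0.0598, edgeR's quasi-likelihood test). With DESeq2's Wald test the same difference in Atg12 passed the threshold.

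Atg5 (ENSMUSG00000038160, chromosome 10, 44268358 to 44364291), the partner of ATG12, was at 53.1, 53.0 and 44.7 CPM in mTOR-/- libraries 1 to 3 and at 58.9, 59.2 and 63.5 CPM in the WT libraries. The groups did not overlap. Atg5 averaged 50.3 ± 4.84 against 60.5 ± 2.58 CPM (SD, n = 3; log2 fold change -0.27, SE 0.115, 95% interval -0.53 to -0.01, adjusted p = 0.223, edgeR's quasi-likelihood test). Atg7 (ENSMUSG00000030314, chromosome 6, 114643097 to 114860614), the activating enzyme, had 86.6, 105 and 67.5 CPM in mTOR-/- libraries 1 to 3 and 106, 113 and 96.3 CPM in WT libraries 1 to 3. Its second mTOR-/- library lay inside the WT range and replicate 3 was the lowest of all. Atg7 averaged 86.2 ± 18.6 and 105 ± 8.30 CPM (SD, n = 3; log2 fold change -0.28, SE 0.154, 95% interval -0.63 to 0.06, adjusted p = 0.327, edgeR's quasi-likelihood test), and its log2 fold change without the third mTOR-/- library was -0.14.

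Among the ATG4 proteases, Atg4c ranged over 46.9 to 58.9 against 59.8 to 67.7 CPM with no overlap (log2 fold change -0.33, adjusted p = 0.169, edgeR's quasi-likelihood test). The paralogs Atg4a (-0.13), Atg4b (-0.0012) and Atg4d (0.05) overlapped between groups. A pseudogene, Atg4a-ps, is annotated, so counts of Atg4a could be split and are uncertain. Atg16l1, the subunit that sets the place of lipidation, had an interval above 0 (0.32, 95% interval 0.02 to 0.62) with overlapping groups and an adjusted p of 0.209 in edgeR's quasi-likelihood test. Its paralog Atg16l2 was at 0.20, or 0.12 without the third mTOR-/- library. The transfer enzymes Atg10 (0.41, 95% interval -0.16 to 0.98) and Atg3 (-0.05, -0.28 to 0.18) had the widest and the narrowest interval of the step, and the level of Atg10 was only 6.04 to 8.41 and 4.91 to 6.28 CPM in the 2 groups.

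ATG8 proteins coat the new membrane and bind the receptors; LC3 proteins act mainly in its growth and GABARAP proteins also in its closure and fusion. Within this family, 4 of the 5 genes were lower in every library labelled mTOR-/- than in any WT library, beside 13.9% of all tested genes. The fifth, Map1lc3b, overlapped with an estimate above 0. None passed edgeR's test or DESeq2's, and 1 higher and 2 lower had an unadjusted p under 0.05, beside 21.2% of all tested genes in either direction. Map1lc3a (ENSMUSG00000027602, chromosome 2, 155276297 to 155278073), 1 of the genes for LC3, had the largest estimate of the family. Its levels were 15.2, 16.1 and 9.26 CPM in mTOR-/- libraries 1 to 3 and 17.4, 18.5 and 20.1 CPM in the WT libraries. The third mTOR-/- library was far below the others of its group, which were just under the lowest WT library. Map1lc3a averaged 13.5 ± 3.71 and 18.7 ± 1.34 CPM (SD, n = 3; log2 fold change -0.47, SE 0.219, 95% interval -0.96 to 0.03, adjusted p = 0.26, edgeR's quasi-likelihood test), and its log2 fold change was -0.26 without that library.

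Map1lc3b (ENSMUSG00000031812, chromosome 8, 121590361 to 121598760), the LC3 gene whose product is the usual marker of autophagosomes, had 79.5, 69.8 and 106 CPM in mTOR-/- libraries 1 to 3 and 61.9, 71.2 and 62.7 CPM in WT libraries 1 to 3. The third mTOR-/- library was the highest, and the second lay below the highest WT library. Map1lc3b averaged 85.3 ± 19.0 and 65.3 ± 5.17 CPM (SD, n = 3; log2 fold change 0.38, SE 0.157, 95% interval 0.03 to 0.74, adjusted p = 0.202, edgeR's quasi-likelihood test). Without the third mTOR-/- library its log2 fold change was 0.19. Map1lc3b overlaps the coding genes Gm20388 and Zcchc14. Of the GABARAP genes, Gabarap ranged over 228 to 306 against 325 to 358 CPM (log2 fold change -0.30), Gabarapl1 over 111 to 134 against 135 to 156 CPM (-0.25) and Gabarapl2 over 29.5 to 33.4 against 33.5 to 42.9 CPM (-0.25). In Gabarapl1 and Gabarapl2 the highest mTOR-/- library lay just below the lowest WT library. Without the third mTOR-/- library, the lowest of the 6 in Gabarap, the log2 fold change of Gabarap was -0.18, and without the third WT library, the highest in Gabarapl2, that of Gabarapl2 was -0.12. Adjusted p-values of these 3 genes ran from 0.202 to 0.367 in edgeR's quasi-likelihood test.

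**Figure D3:**
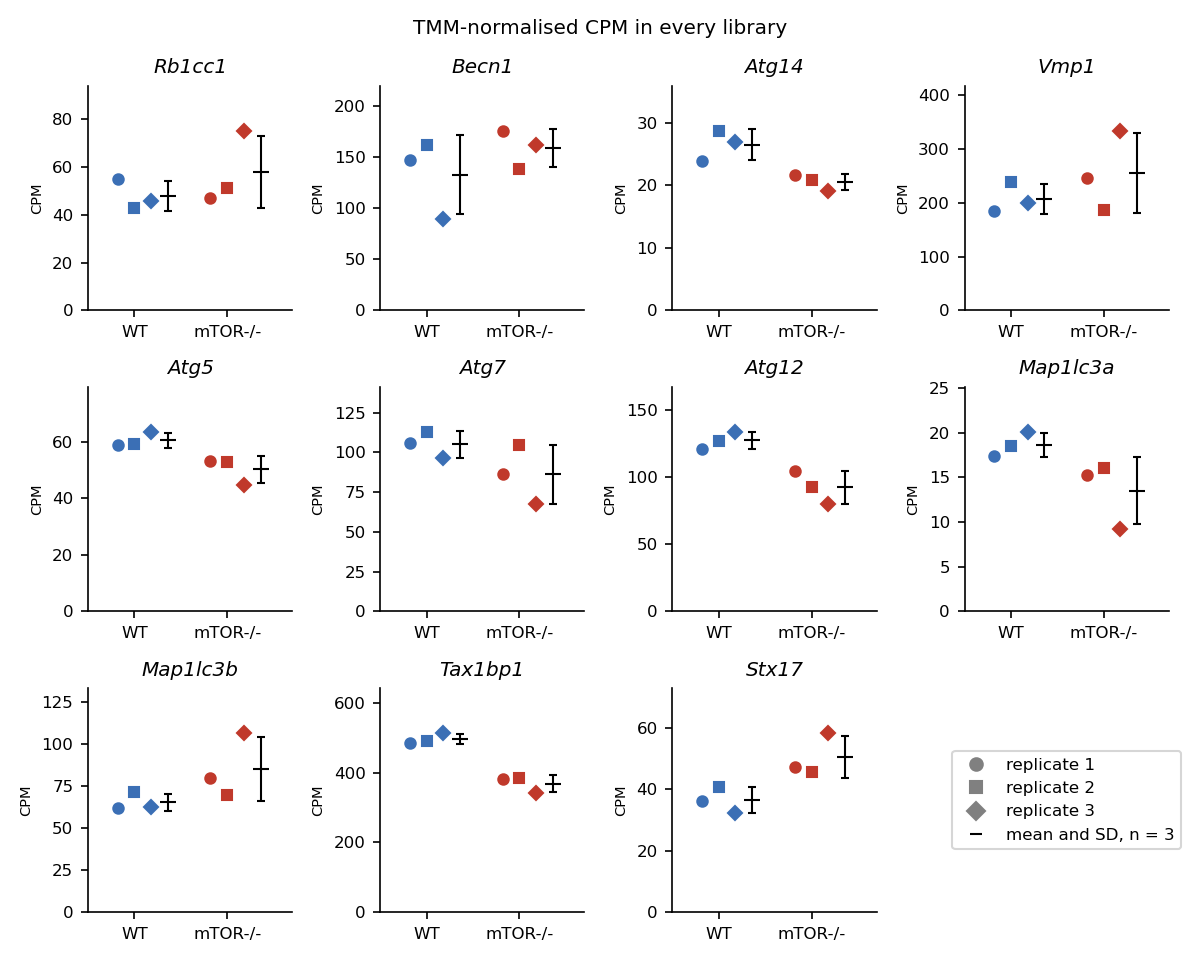
TMM-normalised CPM of 11 autophagy genes in each library (circle, square and diamond for replicates 1, 2 and 3), with bars for the mean and SD of 3 libraries per group. Tax1bp1, Atg12, Atg14, Atg5 and Map1lc3a are lower in every mTOR-/- library than in any WT library, Stx17 is higher in every one, and the other 5 overlap.

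Cargo receptors join ATG8 proteins to what is to be degraded: p62 (Sqstm1), NBR1, optineurin (Optn) and TAX1BP1 mainly to ubiquitin-marked cargo, CALCOCO1 to endoplasmic reticulum and Golgi, and BNIP3 and BNIP3L to mitochondria. Of the 7 genes, 1 passed the test, 5 estimates were below 0, and Tax1bp1, Sqstm1 and Bnip3 were separated, all lower, beside 13.9% of all tested genes. Tax1bp1 (ENSMUSG00000004535, chromosome 6, 52713729 to 52766780), whose promoter window is printed above without an E-box core, had 380.4, 383 and 342 CPM in mTOR-/- libraries 1 to 3 and 486, 489.5 and 514 CPM in WT libraries 1 to 3. The 2 groups were far apart relative to their spread. Tax1bp1 averaged 369 ± 23.0 and 496 ± 15.1 CPM (SD, n = 3), so the libraries labelled mTOR-/- held 0.743 of the WT level (log2 fold change -0.43, SE 0.0886, 95% interval -0.63 to -0.23, adjusted p = 0.0311, edgeR's quasi-likelihood test). The call remained without the third mTOR-/- library (log2 fold change -0.38, adjusted p = 0.0283, edgeR's quasi-likelihood test) and was lost without the first mTOR-/- library or any 1 of the WT libraries. Over 12 alternatives the adjusted p of Tax1bp1 ran from 0.000572 (DESeq2) to 0.162 (edgeR's quasi-likelihood test without the third WT library).

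Sqstm1, which encodes a receptor that is itself degraded by autophagy, had 823, 899 and 668 CPM in mTOR-/- libraries 1 to 3 and 993, 1041 and 1059 CPM in the WT libraries. Its groups did not overlap, and the third mTOR-/- library was again the lowest. The log2 fold change of Sqstm1 was -0.37 (95% interval -0.64 to -0.10, adjusted p = 0.123, edgeR's quasi-likelihood test), and DESeq2's Wald test placed it past the threshold. Sqstm1 overlaps the coding gene Mrnip. Bnip3, a mitophagy receptor that hypoxia induces, ranged over 99.8 to 132 against 138 to 160.2 CPM (log2 fold change -0.39, adjusted p = 0.117, edgeR's quasi-likelihood test). Its relative Bnip3l was at -0.15 with overlapping groups and at -0.0062 without the third mTOR-/- library, and an annotated pseudogene, Bnip3l-ps, makes its counts uncertain. Calcoco1 had a log2 fold change of 0.27 (95% interval -0.06 to 0.60), or 0.10 without that library, Nbr1 of 0.03 and Optn of -0.06.

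Fusion with the lysosome uses the SNARE protein syntaxin 17 (Stx17) and the tether EPG5. Both estimates were above 0. Stx17 (ENSMUSG00000061455, chromosome 4, 48124915 to 48186507) had 47.3, 45.7 and 58.3 CPM in mTOR-/- libraries 1 to 3 and 36.2, 40.7 and 32.3 CPM in WT libraries 1 to 3. It was the only autophagy gene of the 42 higher in every mTOR-/- library than in any WT library. Stx17 averaged 50.4 ± 6.86 and 36.4 ± 4.19 CPM (SD, n = 3), 1.38 of the WT level, and did not pass the threshold (log2 fold change 0.47, SE 0.144, 95% interval 0.14 to 0.79, adjusted p = 0.108, edgeR's quasi-likelihood test). Without the third mTOR-/- library its log2 fold change was 0.35. Epg5 was at 0.19 (95% interval -0.09 to 0.46) with overlapping groups, or 0.09 without the third WT library.

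Read by library, the levels of the 42 genes relative to the WT mean showed the weight of single libraries. The median over the genes was -0.01, -0.12 and -0.07 on the log2 scale in mTOR-/- libraries 1 to 3 and -0.03, 0.03 and -0.00036 in WT libraries 1 to 3. Without the third mTOR-/- library, Tax1bp1 was still the 1 gene that passed the test, and 16 genes were separated lower and 4 higher. Of all tested genes, 37.2% were then separated in either direction and 18.8% in the lower one. In the sum over the 42 genes, the libraries labelled mTOR-/- held 4472, 4315 and 4194 CPM and the WT libraries 4690, 4901 and 4740 CPM. Sqstm1 and Tax1bp1 have the highest CPM of the 42 genes, so this sum follows them more than the others.

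**Figure D4:**
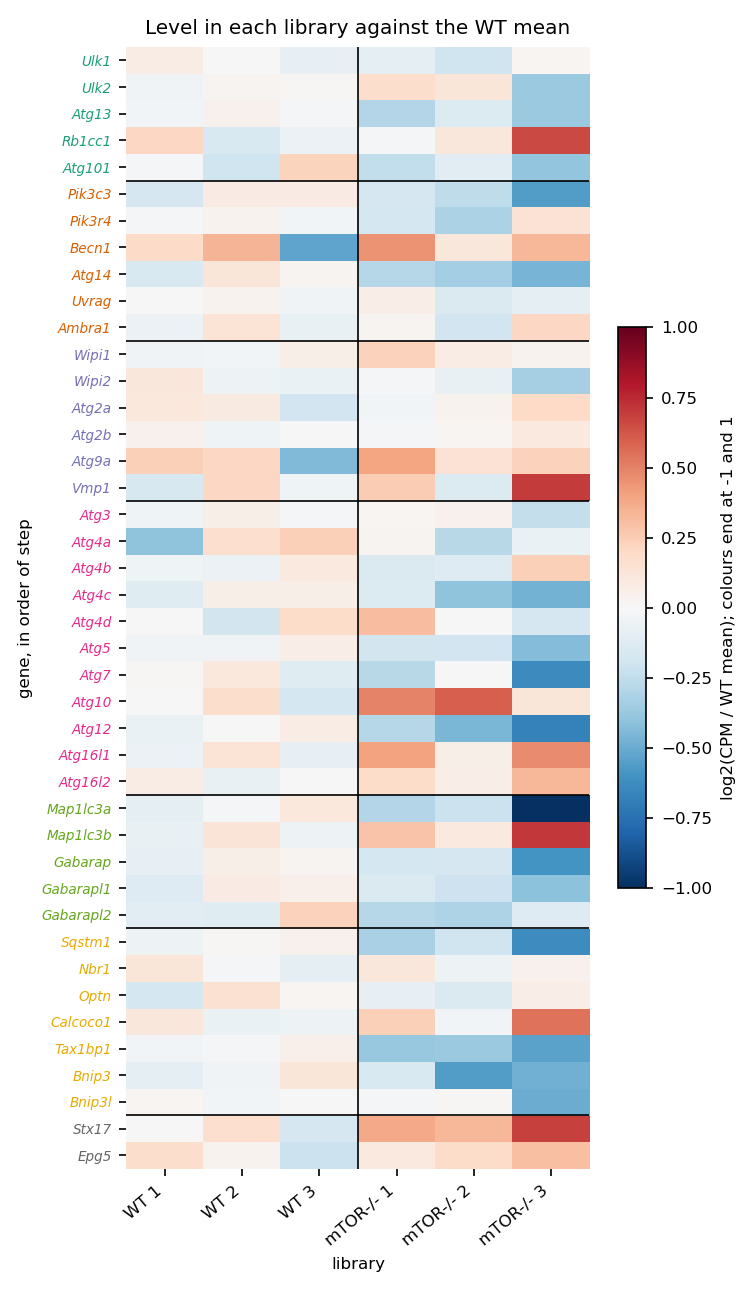
Log2 of TMM-normalised CPM over the WT mean for the 42 autophagy genes (rows, in order of step) in the 6 libraries (columns), with red above and blue below the WT mean and the colour scale ending at -1 and 1. The deepest colours of both kinds stand in the third mTOR-/- library, the lowest of the 6 in 17 genes and the highest in 13.

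Levels were compared between genes per length only. On the deposited FPKM scale, mean levels in the WT libraries were highest for Sqstm1 (146 ± 3.77, SD, n = 3), then Gabarap (103 ± 4.56), Atg12 (50.6 ± 2.11), Bnip3 (46.3 ± 3.28), Gabarapl1 (45.9 ± 3.24) and Tax1bp1 (44.3 ± 1.07). Sqstm1 and Gabarap differed from their neighbours by more than these SDs, whereas the libraries of each neighbouring pair from Atg12 to Tax1bp1 overlapped. The lowest were Rb1cc1 at 2.10 ± 0.295 and Pik3r4 at 2.57 ± 0.0607 FPKM. In the libraries labelled mTOR-/- the FPKM of Sqstm1 was 114 ± 16.6 and that of Gabarap 84.3 ± 13.1.

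The gene length that the FPKM values imply exceeded the exonic length in the GENCODE M21 annotation for 32 of the 42 genes and the whole span of the gene for Map1lc3a and Map1lc3b. Its ratio to the exonic length ran from 0.32 in Atg12 to 2.14 in Map1lc3a. With CPM per kb of exon instead, a scale added after the data were seen, Sqstm1 (305) and Gabarap (185) were again highest in WT, followed by Gabarapl1 (72.8), Bnip3 (64.5) and Vmp1 (53.1). Atg12 moved from rank 3 to rank 14 with 16.4, and the lowest was Atg4d at 2.23. Within the ATG8 family Gabarap and Gabarapl1 led in WT and Map1lc3b was lowest on both scales. The lengths behind Map1lc3b were 10574 bases for FPKM and 7517 bases of exon, in a gene that spans 8400. Its low rank therefore depends on these lengths. Gabarapl2 and Map1lc3a, at 12.3 and 7.32 FPKM, were both at 15.7 on the exonic scale.

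**Figure D5:**
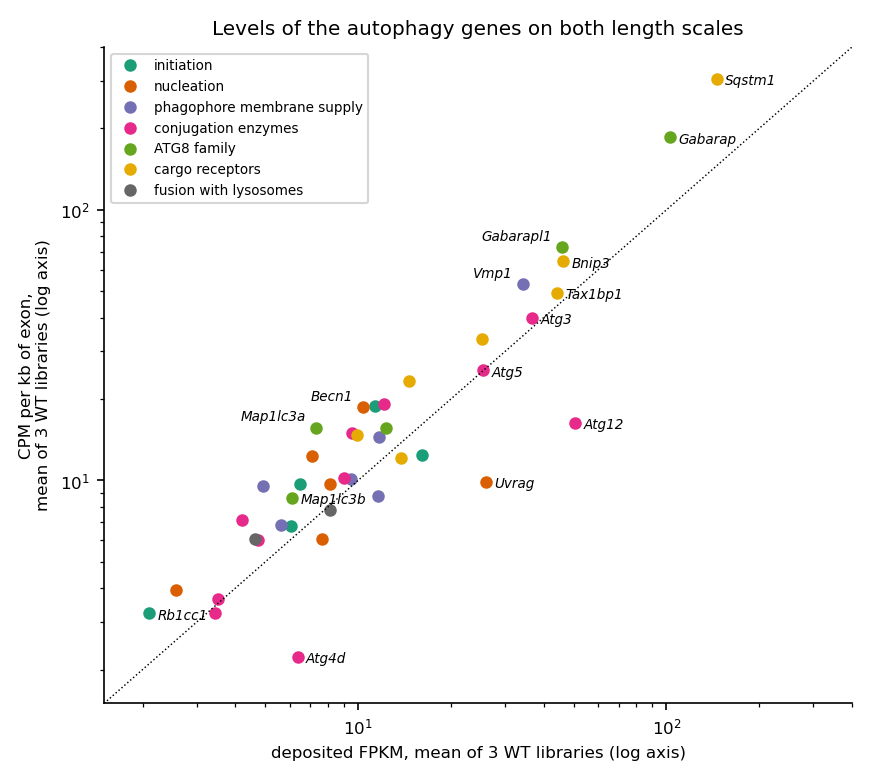
Mean level of the 42 autophagy genes in 3 WT libraries as deposited FPKM (horizontal, log axis) and as CPM per kb of exon (vertical, log axis), coloured by step, with a dotted line of equal values. Sqstm1 and Gabarap are highest on both scales, and Atg12, Uvrag and Atg4d lie far below the line.

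Other genes around this machinery were read from lists of the same pathway. Of 39 further autophagy genes, 38 could be tested, 1 was higher and 0 lower in the libraries labelled mTOR-/-, 8 were separated (21.1%, beside 28.4% of all tested genes), and the median log2 fold change was -0.01. Fyco1, an adaptor that links autophagosomes to kinesin, had 80.0, 81.8 and 98.8 CPM in mTOR-/- libraries 1 to 3 and 64.5, 60.4 and 49.3 CPM in WT libraries 1 to 3. Every mTOR-/- value exceeded every WT value. The log2 fold change of Fyco1 was 0.58 (SE 0.136, adjusted p = 0.048, edgeR's quasi-likelihood test), and its adjusted p was 0.0969 without the third mTOR-/- library in the same test, within a range of 0.00504 (DESeq2) to 0.191 (without the third WT library) over 12 alternatives. Vamp8, the lysosomal SNARE that pairs with syntaxin 17, was lower in every mTOR-/- library (41.3 to 57.7 against 63.5 to 74.1 CPM, log2 fold change -0.53, adjusted p = 0.0746, edgeR's quasi-likelihood test), as was Bcl2, which binds Beclin 1 (73.2 to 82.7 against 96.2 to 104 CPM, -0.37, adjusted p = 0.0702), and both passed DESeq2's test. Atg9b, the paralog of Atg9a, was low and overlapped (1.76 to 4.86 against 4.49 to 6.397 CPM).

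None of the 8 transcription factors of autophagy and lysosome genes passed edgeR's quasi-likelihood test or DESeq2's test, and 1 had an unadjusted p under 0.05. Tfeb (-0.17, 95% interval -0.60 to 0.27) and Tfe3 (0.11, -0.14 to 0.36) overlapped between groups. Zkscan3, described as a repressor of autophagy genes, had 161, 162 and 204 CPM in mTOR-/- libraries 1 to 3 and 106, 119.5 and 46.1 CPM in WT libraries 1 to 3, with the third WT library far below the rest. Its log2 fold change was 0.96 (adjusted p = 0.103, edgeR's quasi-likelihood test) and 0.64 without that library. Over 12 alternatives the adjusted p of Zkscan3 ran from 0.0443, past the threshold with no filter on low counts, to 0.218 without the third mTOR-/- library, both in edgeR's quasi-likelihood test. Tfec (0.39), Mitf (-0.29) and Foxo1 (0.18) had overlapping groups, and the value of Tfec was 0.12 without the third mTOR-/- library.

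Beside Bnip3, 9 of 10 targets or parts of the HIF-1 pathway could be tested, and 0 passed edgeR's quasi-likelihood test and 2, P4ha1 and Ndrg1, DESeq2's, with 3 at an unadjusted p under 0.05 in both directions. The collagen prolyl hydroxylase gene P4ha1 (-0.37, adjusted p = 0.0564) and the oxygen sensor gene Egln3 (-0.30, adjusted p = 0.189) were separated lower in the libraries labelled mTOR-/- and the stress gene Ndrg1 (0.37, adjusted p = 0.0809) higher, while Ankrd37 (0.19) overlapped and Egln3 was at -0.19 without the third mTOR-/- library. Beside Sqstm1, 1 of 9 genes of the NRF2 pathway passed: Hmox1, which encodes haem oxygenase, with 1016, 781 and 841 CPM in mTOR-/- libraries 1 to 3 and 1514, 1517 and 1599.7 CPM in the WT libraries (log2 fold change -0.81, SE 0.117, adjusted p = 0.00642, edgeR's quasi-likelihood test). Nqo1 (10.1 to 17.9 against 19.3 to 20.2 CPM, -0.44) and Txnrd1 (318 to 338 against 369 to 380.4 CPM, -0.20) were separated lower without passing, with Nqo1 at -0.24 without the third mTOR-/- library, and Srxn1 (-0.12) overlapped. The median log2 fold change of these 9 genes was -0.04. In this list and in that of HIF-1, 3 of 9 tested genes were separated (33.3%), beside 28.4% of all tested genes. Over all tested genes, 4.04% passed edgeR's quasi-likelihood test and 21.2% had an unadjusted p under 0.05 in it.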

How the data were processed

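For every library the authors deposited a raw count and an FPKM value per gene. The paper names Bowtie2, HTSeq and mm10, while the submitters' processing notes name HISAT2 2.0.4 and StringTie 1.3.0, and the strand setting is not given in the sources used here. The lengths behind the deposited FPKM are not stated and were derived from the counts. Tables of the authors' own comparison (fold changes and p-values) and 24 repeated per-sample columns were not used.

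Genes were kept by filterByExpr (minimum count 10, minimum total 15) of edgeR 4.0.16 in R 4.3.3, normalised by TMM and tested by edgeR's quasi-likelihood method without a block, with Benjamini-Hochberg adjustment over 12537 genes. SE and 95% intervals come from the same fit, whose biological coefficient of variation was 19.0%. Alternatives used DESeq2 1.42.0, other normalisations and filters, a replicate block and each library left out. The script was tested on simulated data. An exact permutation of 3 against 3 libraries cannot go below p = 0.1, so none was used.

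The genes, steps and lists were chosen with earlier results of these data known. Named in full were the genes past the threshold, the largest estimate of each step, and Becn1, Atg5, Atg7, Map1lc3a and Map1lc3b. Of the other lists, genes past the threshold, up to 4 with the largest changes, Tfeb and Tfe3 were named. Further genes are given by range or by 1 value, and per-library values of Sqstm1 were added after they were seen. Positions are those of the deposited table, 32 of 42 with the same ends in GENCODE M21 (GRCm38), in which 98.6% of its identifiers were found.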

Additional observations from a re-analysis of the deposited data

How the results depend on the processing

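The median log2 fold change of the 42 genes stayed between -0.09 and -0.04 in every alternative, 0 genes reached the 2-fold threshold in any, and 33 of 42 kept their sign in all 12. Fitted with DESeq2's Wald test, 3 autophagy genes passed (Atg12, Sqstm1 and Tax1bp1), with 1144 genes in all, 357 of them at least 2-fold, and 6 other pathway genes. Without a filter on low counts, 2 passed (Atg12 and Tax1bp1), with 4 other pathway genes (Fyco1, Hmox1, P4ha1 and Zkscan3) and 694 in all. The replicate numbers did not pair the libraries (correlations of deviations -0.08, -0.03 and -0.06), and with a replicate block 0 autophagy genes, 1 other pathway gene and 279 genes in all passed. With 1 library left out, 0 to 1 autophagy genes passed (0 without mTOR-/- replicate 1 or any WT replicate), with 1 to 2 other pathway genes, 173 to 513 genes in all and 114 to 229 of at least 2-fold; these fits have fewer libraries. Signs changed in 9 genes near 0. Atg4b was 0.0016 with upper-quartile normalisation. With libraries left out, log2 fold changes ran from -0.089 to 0.11 for Ambra1, -0.026 to 0.11 for Atg2a, -0.0058 to 0.052 for Atg2b, -0.11 to 0.027 for Atg3, -0.14 to 0.063 for Atg4b, -0.093 to 0.15 for Atg4d, -0.016 to 0.088 for Nbr1, -0.15 to 0.016 for Optn and -0.11 to 0.14 for Ulk2. Where no cause is given, the cause was not tested. No other scaling moved the median of all genes by over 0.1. The third mTOR-/- library, the overlap of 8 of the 42 genes with other coding genes, and 3 libraries per group limit the precision.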

Other observations

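Single libraries fell well below the others in some genes outside the comparisons above. Of 8230 genes with a median of at least 200 counts, the number in which 1 library held less than 0.5 times the lowest of the other 5 was 8, 18 and 40 in mTOR-/- libraries 1 to 3 and 22, 6 and 9 in WT libraries 1 to 3. Among the genes of the autophagy lists, these were Tecpr2 in the third mTOR-/- library, Ncoa4 in the first WT library and Zkscan3 in the third WT library, and 0 of the 42 genes of the core machinery.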
